A study of Mus musculus with 13 samples.

Results

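Pericentromere-associated domains (PADs) called in mouse embryonic stem cells (ESCs) were compared with those called in neural precursor cells (NPCs) grown from them. Each of 374542 autosomal fragment ends, of 399232 in the whole table, was placed in 1 of 4 classes by its ESC and NPC calls: PAD in both, non-PAD in both, PAD in NPCs only ("gained") or PAD in ESCs only ("lost"). Consecutive ends of the same class were merged, with borders midway between ends, which gave 4551 segments over 2413.95 Mb on 19 chromosomes. Sat4C had been performed on 3 replicates of the ESC line IB10 (129/ola) and on 2 replicates of an NPC line that was made from it, so both cell types share 1 genetic background and each stands for 1 line. Astrocytes (ACs) derived from these NPCs, and thymus tissue of adult male C57BL/6 mice, are the other samples of the study and enter below only as the state of the same sequence elsewhere. The table holds 1 consensus call per fragment end and cell type, so no value below has a replicate error, no difference could be tested, and the read depth behind a call is unknown. It holds no expression values, so the identity of the cells could not be checked against marker genes.

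In mouse nuclei the pericentromeric major satellite repeats of several chromosomes cluster into chromocenters, which stain as dense heterochromatin. Sat4C uses the satellite repeat as the viewpoint of a 4C experiment and so finds DNA that lies near chromocenters. In differentiated cells such DNA tends to be poor in active genes. In ESCs, however, the authors found highly expressed genes nearly as often in PADs as outside them. The position of a gene relative to heterochromatin is known to differ between cell types. Neural precursors are proliferating cells that have left pluripotency and can give rise to neurons and glia.

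The unit behind every domain is a fragment end, which begins at a restriction site. Of the autosomal ends, MfeI sites opened 186925 (49.9%) and NlaIII sites 179335 (47.9%) in the mm9 sequence, and neighboring ends were a median of 2892 bp apart. The 4 ends that set the borders of the largest gained segment and the 4 that set those of the largest lost segment inside a chromosome are shown because a switch of call between neighboring ends is all that defines a border here. The first 60 bases are given on the plus strand (mm9), with the restriction site in capitals. The first pair lies in introns of Man1b1, a mannosidase gene, the second pair in introns of Spna2, which encodes a spectrin, and the other 4 ends overlap no protein-coding gene.
last end before the gained segment, chr2:25192676-25192735: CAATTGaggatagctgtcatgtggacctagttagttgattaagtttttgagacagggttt
first end of the gained segment, chr2:25202443-25202502: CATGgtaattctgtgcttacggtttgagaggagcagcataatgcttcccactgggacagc
last end of the gained segment, chr2:29848335-29848394: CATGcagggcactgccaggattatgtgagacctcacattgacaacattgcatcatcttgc
first end after the gained segment, chr2:29848424-29848483: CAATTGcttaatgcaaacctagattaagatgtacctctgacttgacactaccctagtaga
last end before the lost segment, chr12:65712415-65712474: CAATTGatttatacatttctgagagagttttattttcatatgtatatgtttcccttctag
first end of the lost segment, chr12:65718261-65718320: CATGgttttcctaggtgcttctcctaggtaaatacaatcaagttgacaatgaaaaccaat
last end of the lost segment, chr12:70329776-70329835: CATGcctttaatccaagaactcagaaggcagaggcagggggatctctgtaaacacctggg
first end after the lost segment, chr12:70329978-70330037: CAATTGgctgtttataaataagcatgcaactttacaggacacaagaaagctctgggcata
In the first 4 ends the NPC call was PAD throughout and the ESC call changed from PAD to non-PAD and back, whereas in the last 4 the NPC call was non-PAD throughout and the ESC call changed from non-PAD to PAD and back. The left border of the gained segment rests on ends 9767 bp apart and its right border on ends 89 bp apart, so the precision of a border varies with the local spacing of the sites.

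The NPC column stood apart from the others in this table. Over autosomal ends, the coefficient of agreement between calls (phi, where 1 is identity and 0 is no association) was 0.36 between ESCs and NPCs, 0.57 between ESCs and ACs, and 0.33 between NPCs and ACs. It was 0.36 between ESCs and thymus, 0.52 between ACs and thymus, and 0.04 between NPCs and thymus. Agreement between ESCs and NPCs was highest with the columns aligned as deposited and was lower at every other offset that was tried, from 10 to 1000 ends in either direction. By chromosome, phi between ESCs and NPCs ran from 0.20 on Chromosome 16 to 0.62 on Chromosome 14. These values are facts of the deposited calls, and their part in the gains and losses below was not tested.

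PADs covered 52.8% of the autosomal sequence in ESCs (1274 Mb) and 69.3% in NPCs (1673 Mb), beside 50.1% in ACs and 48.1% in thymus. NPC coverage was thus the highest of the 4 columns. The authors reported no marked difference in total PAD coverage between ESCs and the other cell types, which differs from the NPC value found here. The excess of gain over loss below rests on the NPC column as deposited, which could not be checked against replicates. Gained sequence made up 24.8% (598 Mb, 1374 segments) and lost sequence 8.28% (200 Mb, 888 segments), so that gains exceeded losses by 398 Mb, or 2.99 bases gained for each base lost. PAD in both cell types was 44.5% of the sequence (1075 Mb, 1375 segments) and non-PAD in both was 22.4% (541 Mb, 914 segments). NPC PADs took in 52.5% of what was non-PAD in ESCs and left out 15.7% of what was PAD. The comparison of ESCs with ACs, which shares the ESC calls, gave 9.42% gained and 12.1% lost.

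Gained segments had a median size of 255 kb (quartiles 104 and 582 kb) and lost segments of 129 kb (quartiles 47.9 and 271 kb). Segments over 1 Mb held 42.2% of the gained sequence (154 segments) and 19.6% of the lost sequence (20 segments). Segments under 100 kb were 24.5% of the gained and 42.6% of the lost segments by number, but 2.37% and 8.07% of the respective bases. Single fragment ends made up 23 gained and 40 lost segments. Loss was thus spread over smaller pieces than gain.

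Gain was seen on all 19 autosomes in excess of loss, with large differences among them. Gained sequence averaged 24.3% of a chromosome (SD 6.41 over 19 chromosomes, which are not replicates) and lost sequence 8.78% (SD 3.46). Chromosome 10 had the highest gain (35.2%) and the highest net change, from 42.1% PAD in ESCs to 69.8% in NPCs. Chromosome 14 had the lowest gain (13.9%). Loss was highest on Chromosome 18 (15.4%), which also had the lowest net change (from 55.8% to 59.2% PAD), and lowest on Chromosome 6 (4.51%). Chromosomes 17 and 18 had 1.30 and 1.23 bases gained for each base lost, while Chromosomes 6 and 1 had 6.74 and 5.60.

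**Figure D1:**
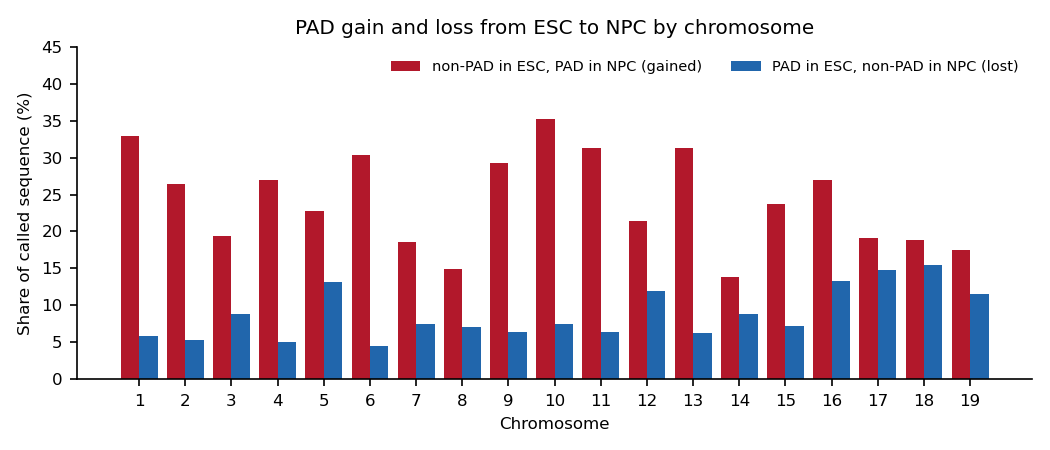
Gained (red) and lost (blue) sequence on each autosome, as a percent of its called sequence. Gain exceeds loss on all 19 chromosomes, most on Chromosome 10 (35.2% against 7.50%) and least on Chromosome 18 (18.9% against 15.4%).

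Correlations with the overall gene or base content of a chromosome were near 0. Over the 19 chromosomes, given as a description, Pearson's r of the gained percent was -0.07 with genes per Mb and -0.05 with GC content, and that of the lost percent was -0.13 and -0.07. The lost percent was higher on shorter chromosomes (r = -0.59, Spearman's rho -0.58 with length). The gained percent was lower where ESC PADs already covered more (r = -0.65, rho -0.66), but the share that PADs leave free limits what can be gained. For the gained share of ESC non-PAD sequence, the correlation with ESC PAD coverage was weaker (r = -0.35, rho -0.39).

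Along the chromosomes, the coverage of ESC PADs and NPC PADs differed least next to the centromere and most at the far end. In the first of 10 equal bins counted from the centromere, PADs covered 71.2% in ESCs and 72.7% in NPCs, and gain (15.9%) nearly equalled loss (14.4%). In the last bin, PADs covered 31.4% in ESCs and 65.6% in NPCs, with 39.1% gained and 4.96% lost. ESC coverage was lower in the last than in the first bin, and NPC coverage lay between 65.6% and 73.6% in all 10 bins. The share of ESC non-PAD sequence that was gained was more even, from 46.5% to 59.0%.

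**Figure D2:**
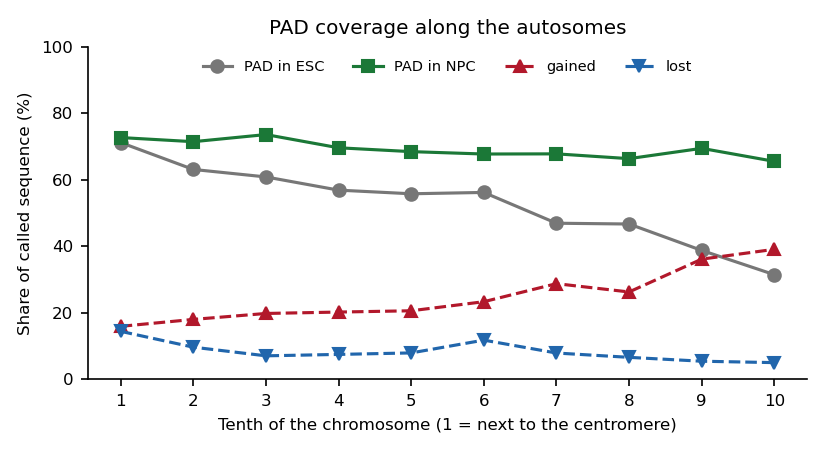
Percent of called autosomal sequence that was PAD in ESCs (gray circles), PAD in NPCs (green squares), gained (red triangles) or lost (blue triangles) in 10 equal bins of the chromosomes, counted from the centromere. ESC coverage goes from 71.2% to 31.4%, while NPC coverage stays between 65.6% and 73.6%.

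NPC PADs were fewer and larger than ESC PADs, 1058 against 1246 on the autosomes, with a median size of 828 kb against 494 kb. PADs over 2 Mb numbered 249 in NPCs and 182 in ESCs, and held 66.6% and 57.3% of the respective PAD sequence. The number was lower in NPCs on 12 chromosomes and higher on 7. Chromosome 16 had 77 ESC PADs against 45 NPC PADs and Chromosome 8 had 67 against 36. On Chromosome 12, 42 ESC PADs with a median of 548 kb stood against 11 NPC PADs with a median of 6837 kb. Chromosome 12 was also where NPC and AC calls agreed most (phi 0.70, against 0.12 to 0.54 on the others).

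Of the NPC PADs, 272 (25.7%) overlapped 2 or more ESC PADs, and these held 56.9% of all NPC PAD sequence (952 Mb). They joined 2 ESC PADs in 145 cases, 3 or 4 in 97 and 5 or more in 30, with a maximum of 14. A further 584 NPC PADs overlapped 1 ESC PAD and 202 overlapped none. The median size was 2.51 Mb for NPC PADs with 2 or more ESC PADs, 666 kb for those with 1 and 350 kb for those with none. When an ESC PAD was assigned only where at least 50% of it lay in the NPC PAD, 210 NPC PADs held 2 or more. Without Chromosome 12, the number that overlapped 2 or more was 265.

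**Figure D3:**
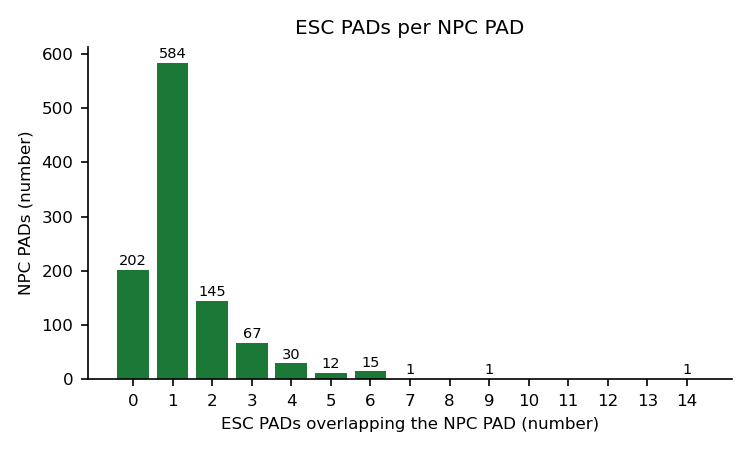
Number of NPC PADs (bars, counts printed above) by the number of ESC PADs that each overlaps by at least 1 base. The 272 PADs from 2 upward are fusions in this sense, and 1 NPC PAD overlaps 14 ESC PADs.

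Seen from the ESC side, 519 of 1227 non-PADs that lay between ESC PADs (42.3%) were wholly PAD in NPCs. These bridged non-PADs held 234 Mb, 39.2% of the gained sequence. Their median size was 262 kb, and that of the non-PADs that were not bridged was 741 kb. Splitting occurred as well: 187 ESC PADs overlapped 2 or more NPC PADs (up to 10), 891 overlapped 1, 168 overlapped none, and 618 were PAD over their whole length in NPCs. No ESC PAD of Chromosome 12 was split, and 15 of 60 on Chromosome 2 were.

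The largest fusion was an NPC PAD of 18.8 Mb on Chromosome 4 (92803580 to 111619471) that overlapped 14 ESC PADs. ESC PADs covered 45.99% of it, AC PADs 79.2% and thymus PADs 39.0%, and its longest gene was Agbl4 (1267 kb), a carboxypeptidase gene. The next NPC PADs by this count held 9 ESC PADs on Chromosome 1 (69403812 to 76041071, longest gene Spag16), 7 on Chromosome 6 (85832823 to 92626364, Prickle2), 6 on Chromosome 16 (12302956 to 26024945, Lpp) and 6 on Chromosome 4 (78141974 to 89090709, Sh3gl2). Prior coverage differed among them, from 41.5% PAD in ESCs in the Spag16 domain to 86.5% in the Sh3gl2 domain.

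**Figure D4:**
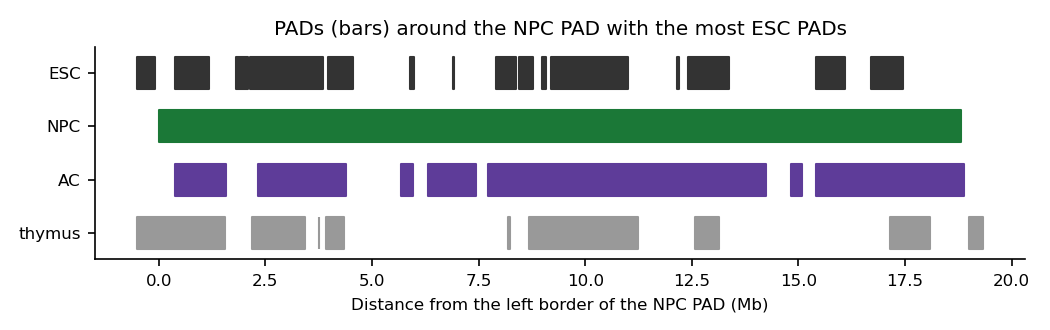
PADs (bars) of ESCs, NPCs, ACs and thymus across the NPC PAD with the most ESC PADs, with a margin of 500 kb and the distance from its left border in Mb. The NPC track is 1 PAD of 18.8 Mb, and the ESC track within it is made of 14 PADs that cover 45.99%.

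Gained and lost segments were sorted by the classes next to them. A segment ends where the ESC or the NPC call switches. Its neighbors therefore have the same call in both cell types, unless both calls switch together. Of the gained segments, 519 (37.8%, 234 Mb) lay between PADs shared by both cell types and 647 (47.1%, 260 Mb) extended a shared PAD on 1 side. Another 200 (14.6%, 97.1 Mb) lay in sequence that was otherwise non-PAD in both. Gene density was 9.98 per Mb in the first group, 10.3 in the second and 12.03 in the third, and GC content was 43.7%, 43.9% and 44.6%. Lost segments fell into the same arrangements: 297 (33.4%, 64.4 Mb) lay within shared PADs, 420 (47.3%, 74.9 Mb) were at their edges and 165 (18.6%, 54.3 Mb) were isolated. Direct contact of a gained with a lost segment, which needs both calls to switch between the same ends, occurred at 1 place.

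The borders themselves were seldom in the same place. Of 2466 ESC borders, 21 (0.85%) fell between the same 2 fragment ends as an NPC border of the same sense, 4.06% lay within 10 kb of one and 18.4% within 100 kb, and the median distance was 527 kb. For AC borders, the values were 1.05%, 5.07%, 24.7% and 382 kb. The number of borders was 1908 in ACs and 2088 in NPCs.

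The share of sequence that changed was lowest in the largest ESC domains. Of the sequence in ESC non-PADs over 3 Mb (87 domains), 42.8% was gained, compared with 66.2% in those of 100 to 300 kb (291 domains). The share of domains that were wholly PAD in NPCs was 5.75% and 59.8%. The share with no PAD in NPCs was likewise 6.90% and 23.4%, so small non-PADs more often had a single NPC call throughout. For ESC PADs over 3 Mb (96 domains), 11.1% of the sequence was lost, against 29.0% in those of 100 to 300 kb (253 domains). Domains under 10 kb changed in 73.9% (non-PADs) and 21.6% (PADs) of their sequence, but those classes hold 22 and 46 domains with 0.0885 and 0.187 Mb.

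Gained sequence was the most GC-rich of the 4 classes. GC content was 43.96% in gained, 42.7% in stable non-PAD, 40.8% in stable PAD and 40.2% in lost sequence, and gained sequence was above stable PAD sequence on 19 of 19 chromosomes and above stable non-PAD sequence on 18. Protein-coding genes numbered 10.5 per Mb in gained, 9.46 in stable non-PAD, 7.94 in stable PAD and 7.20 in lost sequence, and gene bodies took up 46.9%, 41.2%, 35.1% and 32.3%. By chromosome, gained sequence was denser in genes than lost sequence on 17 of 19 and denser than stable non-PAD sequence on 9 of 19, so the latter order was not general. Fragment ends were 147 per Mb in gained and 155 in lost sequence, against 163 in stable PADs.

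In windows of 1 Mb, the gained and lost shares differed most between the lowest and the highest GC content, without an even course between them. The share of ESC non-PAD sequence that was gained was 36.7% in 368 windows under 38% GC, then 47.4%, 43.99%, 53.0% and 56.7% in the next 4 bins, and 62.9% in 334 windows over 46% GC. The share of ESC PAD sequence that was lost was 19.4%, 15.9%, 14.4%, 16.5%, 11.98% and 8.91% in the same bins. Since ESC PADs covered 73.0% of the former windows and 21.6% of the latter, NPC coverage came out nearly level, at 68.7% and 69.0%. With gene number, from 239 windows without genes to 412 windows with 16 or more, the gained share was 40.5% and 56.4% and the lost share 16.4% and 15.3%.

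**Figure D5:**
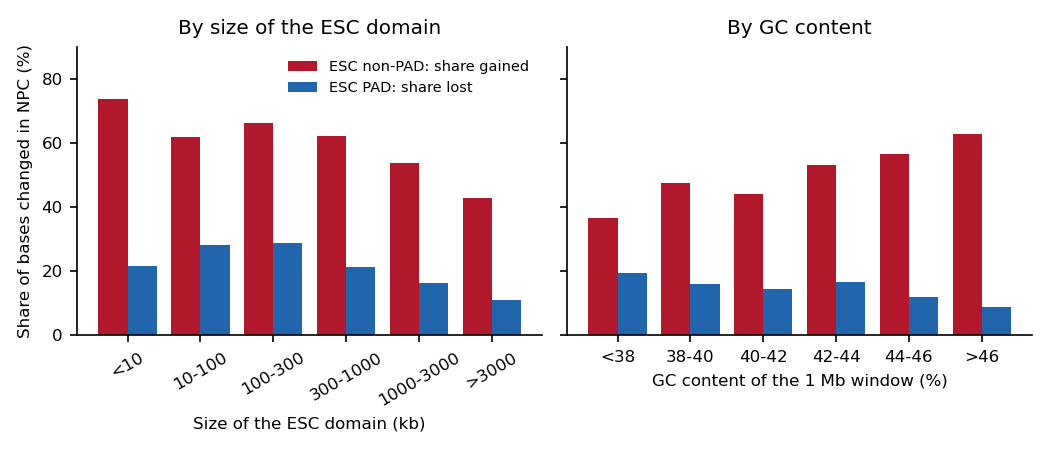
Share of the bases of ESC non-PADs that were gained (red) and of ESC PADs that were lost (blue) in NPCs, by size of the ESC domain (left) and by GC content of 1 Mb windows (right). The gained share is 42.8% in non-PADs over 3 Mb and 62.9% in windows over 46% GC, and the lost share is 11.1% in PADs over 3 Mb and 8.91% in those windows.

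In ACs and thymus, gained sequence was mostly non-PAD and lost sequence mostly PAD, where PADs covered 50.1% and 48.1% of all autosomal sequence. Gained sequence was 26.2% PAD in ACs and 22.1% PAD in thymus, and 65.3% of it was PAD in neither. Lost sequence was 61.7% PAD in ACs and 71.4% PAD in thymus, and 19.7% of it was PAD in neither. Sequence that was non-PAD in both ESCs and NPCs was 13.0% PAD in ACs and 36.2% PAD in thymus, and sequence that was PAD in both was 79.9% and 64.2%. In thymus, gained sequence therefore had less PAD than stable non-PAD sequence and lost sequence more than stable PAD sequence, whereas in ACs both lay between the stable classes. By segment, 635 of 1374 gained segments (46.2%) were wholly non-PAD and 373 (27.1%) wholly PAD in ACs, which were made from the NPCs. Of the 888 lost segments, 463 (52.1%) were wholly PAD and 258 (29.1%) wholly non-PAD in ACs. Gained segments over 1 Mb were 14.7% PAD in ACs and those under 100 kb were 51.0%. Bridging segments were 35.8% PAD in ACs, against 13.6% for gained segments that touched no shared PAD.

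The largest gained segment measured 4.65 Mb on Chromosome 2 (25197560 to 29848379), between shared PADs, with 531 fragment ends, 113 protein-coding genes and a GC content of 49.2%. Its longest gene was Med27, a subunit of the Mediator complex, and it was 0% PAD in ACs and thymus. The second, 4.09 Mb with 75 genes, lay on Chromosome 10 (73476406 to 77567106, longest gene Pcbp3), and the third, 3.68 Mb with 42 genes, on Chromosome 5 (35344477 to 39027063, Sorcs2). The fourth, 3.56 Mb with 12 genes, was on Chromosome 1 (84116318 to 87674630, Dner), and the fifth, 3.54 Mb with 65 genes, was on Chromosome 2 again (30676544 to 34213111, Ralgps1). All 5 were at most 19.5% PAD in ACs and at most 7.04% PAD in thymus. In the region of Chromosome 10 from 68 to 82 Mb, 69.8% of the sequence was gained and none lost. The region lies on the autosome with the highest gain (35.2%). It includes the second largest gained segment and the gained segment with most genes (140), so its gained share is not a separate observation. Of the genes in the region, 226 lay in gained, 30 in stable PAD and 7 in stable non-PAD sequence, where 29.5% of all genes were gained.

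Among the largest lost segments, several were sparse in fragment ends. The largest, 4.90 Mb at the start of Chromosome 14 (3291202 to 8188094), had 43 ends and 103 genes, nearly all of them predicted Gm genes. It was PAD over its whole length in ESCs and thymus and over none of it in ACs. The second, 4.61 Mb on Chromosome 12 (65715338 to 70329877), had 791 ends and 18 genes and was a whole ESC PAD between non-PADs. Its longest gene was Mdga2, which encodes a neuronal adhesion molecule. The third, on Chromosome 7 (3.65 Mb, 7095525 to 10748476, longest gene Vmn2r48), had 46 ends, the fourth, on Chromosome 5 (2.72 Mb, 108172170 to 110893696, Evi5), had 332, and the fifth, on Chromosome 8 (2.49 Mb, 19624733 to 22119196, Gm15319), had 13. Segments with under 50 ends per Mb held 8.31% of the lost and 0.888% of the gained sequence. Without them the lost percent was 7.74%.

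By the midpoint of their longest transcript, 6305 of 21397 protein-coding genes (29.5%) were gained and 1439 (6.73%) were lost. PADs thus held 46.6% of genes in ESCs (9974) and 69.4% in NPCs (14840). The genes were concentrated: 183 gained segments with 10 or more genes held 69.1% of gained genes, and 558 of the 1374 held none. Of lost segments, 31 with 10 or more genes held 43.6% of lost genes, and 531 of the 888 held none. The lost segment at the start of Chromosome 14, with 43 ends, alone held 103 of the lost genes. Without segments under 50 ends per Mb, 6273 genes were gained and 1242 lost. Gene length made little difference to the gained share, which was 26.7% of 8494 genes under 10 kb, 32.0% of 4754 genes of 30 to 100 kb and 26.0% of 492 genes of 300 kb or more. A class border ran through 5.99% of genes and through 55.1% of those of 300 kb or more, for which a single class is only the state of the midpoint.

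Genes that mark ESCs or NPCs were found in gained as well as in stable sequence. Of 22 placed pluripotency genes, 5 were gained (22.7%), 2 lost (9.09%), 9 PAD in both and 6 non-PAD in both, beside 29.5% and 6.73% of all genes. The gained genes were Pou5f1 (encoding the transcription factor Oct4), the nuclear receptor gene Esrrb, Tcl1, Tdgf1 and Dppa5a, and none of the 5 was PAD in ACs or thymus. The segment of Pou5f1 on Chromosome 17 (35449340 to 35687954) rests on 6 fragment ends over 239 kb. The lost genes were Prdm14, a transcriptional regulator of pluripotency and germ cells, on Chromosome 1 (segment of 836 kb with 129 ends) and Utf1 on Chromosome 7 (184 kb, 17 ends). Prdm14 was PAD in ACs and thymus, and Utf1 in ACs. Nanog and Sox2 were PAD in both cell types, and Klf4 and Zfp42 in neither.

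Of 21 placed neural precursor genes, 5 were gained (23.8%) and none lost, beside 29.5% and 6.73% of all genes. The gained genes were Notch1, the receptor that keeps precursors undifferentiated, its effector Hes5, the intermediate filament gene Nes, the lipid-binding protein gene Fabp7 and Zbtb16. Among them, Zbtb16 crossed a class border. Notch1 (ENSMUSG00000026923.8, Chromosome 2, 26313426 to 26372156) lay within the largest gained segment. Nes (Chromosome 3, 87775015 to 87784373) shared a gained segment of 1040 kb with Lmna. The Hes5 segment, 3221 kb at the distal end of Chromosome 4, was an NPC PAD without any ESC PAD. Pax6, Vim, Lhx2 and Dll1 were PAD in both cell types, and Olig1, Olig2, Otx2, Emx2, Msi1 and Msi2 in neither.

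Neuronal genes, of which 23 were placed, included 5 gained (21.7%) and 1 lost, beside 29.5% and 6.73% of all genes. Gained were Grin2a, a glutamate receptor subunit gene, Syt1, Rbfox3, Dlg2 and Nrxn3, and all but Grin2a crossed a class border. The lost gene was the neuronal tubulin gene Tubb3 (Chromosome 8, 125935324 to 125945915), which also crossed a border and lay in a segment of 313 kb with 25 ends. Of 18 astrocyte genes, 6 were gained (33.3%): the glial filament gene Gfap, the calcium-binding protein gene S100b, the glutamate transporter gene Slc1a2 with its neighbor Cd44, and the transcription factor genes Nfia and Sox9. Only Sox9 of these 6 was PAD in ACs. Fgfr3, a fibroblast growth factor receptor gene, was lost and was non-PAD in ACs and thymus.

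Genes of other lineages were likewise found in gained more than in lost sequence, as all genes were (29.5% gained and 6.73% lost). Of 24 mesoderm and endoderm genes, 7 were gained (29.2%) and none lost. The gained genes included T, Mixl1 and Gsc, which act in gastrulation, Myod1, which drives muscle differentiation, the endothelial receptor gene Kdr, and Hnf4a, which acts in liver. Of 17 germline and placenta genes, 5 were gained (Ddx4, Sycp3, Zp3, Gcm1 and Elf5) and 2 lost (Sycp1 and Ceacam5). Elf5 and Ceacam5 crossed a class border. Of 22 housekeeping genes, 4 were gained (Eef1a1, Eef2, Snrpd3 and Tfrc), 1 was lost (Ppia) and 11, among them Gapdh and Tbp, were PAD in both.

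The list of chromatin and lamina genes had the highest gained share of the 8 lists, 13 of 22 (59.1%), beside 29.5% of all genes. It had 1 gene lost, beside 6.73% of all genes, and none non-PAD in both. The lists were chosen with earlier results of these data known, and the difference was not tested. Gained were the lamin genes Lmna, Lmnb1 and Lmnb2, the lamin B receptor gene Lbr, the heterochromatin protein 1 genes Cbx1 and Cbx3, the DNA methyltransferase genes Dnmt3a and Dnmt3b, the histone methyltransferase genes Suv39h2 and Suv420h1, the centromere protein genes Cenpa and Cenpb, and Daxx. They lay in 13 different segments, and 4 of them (Suv39h2, Daxx, Lmnb1 and Suv420h1) crossed a class border. Of the 13, Dnmt3a was PAD in ACs and Suv39h2 in thymus, and the others in neither. Hells, a chromatin remodeler gene, was lost, and Cbx5, Dnmt1, Ehmt2, Ezh2, Setdb1 and Trim28 were PAD in both.

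Neighboring members of clustered gene families often lay in the same segment, so that they are not separate observations. Class borders also ran through some of the clusters. All 12 annotated Hoxa genes (Hoxa3 is listed under 2 identifiers), which pattern the body axis, were gained in 1 segment of Chromosome 6 (51326639 to 53251010) and were PAD in ACs and non-PAD in thymus. The Hoxb genes were non-PAD and the Hoxc and Hoxd genes PAD in both ESCs and NPCs, and no Hox gene of 40 was lost. Of 51 keratin genes, 28 were gained (54.9%) in 2 segments and none lost. The other keratin genes were PAD in both cell types (7) or non-PAD in both (16). Of 76 ribosomal protein genes, 23 were gained (30.3%) in 23 segments and 6 lost (7.89%) in 4. This is close to the shares of all genes (29.5% and 6.73%). Among these, none of the gained genes was PAD in ACs, and Rpl10l, Rps29 and Rpl36al were lost within the Mdga2 segment. Zfp zinc finger genes were gained in 56 of 362 cases (15.5%) and lost in 39 (10.8%), in 41 and 19 segments.

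In other families losses were as frequent as gains or more so, whereas of all genes 29.5% were gained and 6.73% lost. Only a gene in an ESC PAD can be lost, and of all such genes 14.4% were lost. ESC PADs held 900 of 1106 olfactory receptor, 236 of 327 vomeronasal receptor, 63 of 67 histone and 29 of 34 protocadherin genes. They held 46.6% of all genes, so a larger share of these families could be lost and a smaller share gained. Olfactory receptor genes were mostly PAD in both (758 of 1106), with 82 gained (7.41%) and 142 lost (12.8%), in 17 and 16 segments. Of 327 vomeronasal receptor genes, 18 were gained and 81 lost (24.8%), in 4 and 13 segments. These 81 include the Vmn2r genes of the sparse lost segment of Chromosome 7 described above (46 ends, 30 genes, most of them Vmn2r). They also include Vmn2r genes of the large lost segment of Chromosome 5 (332 ends). Of 67 histone genes, 11 were lost (16.4%) and 1 was gained (Hist1h2al). Among the lost histone genes, 9 belonged to the Hist2 cluster on Chromosome 3 (segment 95864876 to 96263031). Of 34 protocadherin genes, 6 were lost, Pcdhb2 to Pcdhb7, in 1 segment of 16 fragment ends, and 4 were gained.

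The remaining families had gains above losses, as all genes had (29.5% gained and 6.73% lost). Serpin genes were gained in 19 of 59 cases (32.2%) and lost in 9, all 9 in 1 segment of 947 kb from Serpinb5 to Serpinb7 on Chromosome 1. Cytochrome P450 genes were gained in 29 of 98 cases (29.6%) in 14 segments and lost in 12 (12.2%) in 3, 11 of them Cyp2c genes on Chromosome 19. Of 53 defensin genes, 16 were gained (30.2%) in 2 segments and 1, Defa24, was lost in a segment of 3 ends. Of 26 claudin genes, which encode tight junction proteins, 8 were gained (30.8%) and 3 lost, namely Cldn8, Cldn17 and Cldn25.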

How the data were processed

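The authors mapped sat4C reads to 4C fragment ends of mm9, grouped ends by read number, and fitted to each replicate a 2-state hidden semi-Markov model (mhsmm in R). They combined the replicates' calls by majority vote. Ties were settled on pooled reads, so that with 2 NPC replicates every disagreement went to the pool, whereas the 3 ESC replicates could not tie. The aligner was not stated in the sources consulted. The deposited values are other than counts: the words PAD and nPAD in 4 columns, 1 per cell type, with 0 columns per replicate, so depth and spread could not be examined and no test was made.

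ESC and NPC calls were joined into classes with borders midway between ends. Genes came from GENCODE vM1 on NCBIM37 (mm9): 21397 of 21418 autosomal protein-coding genes were placed and 21 lay outside the called sequence. Named items were gained and lost members of 8 gene lists, counts of 12 families with lost members named where few, the 5 largest gained and lost segments, the 5 NPC PADs with most ESC PADs, extreme chromosomes and a region of Chromosome 10. Other genes were named after their calls were seen. Some list members are not reported here by name. The classes and lists were chosen with earlier results of these data known. Windows had at least 500000 sequenced bases (2390 windows). Functions were tested on simulated calls. Python 3.11.15, numpy 2.4.6, pandas 2.3.3, pysam 0.24.0 and matplotlib 3.10.9 were used.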

Additional observations from a re-analysis of the deposited data

How the results depend on the processing

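Over 50 recomputed values, 40 stayed within 1.5 times the reported count or, for the 2 percentages, within the 95% binomial (Wilson) interval over fragment ends, which covers counting error only although neighboring ends are not independent. The 10 others were all percentages: for the gained and for the lost percent alike, 5 values moved and 2 did not. The limit for counts is wide. Borders at the outer ends leave the same runs of ends, so the numbers of segments and of fusions could not change there. The gained percent was 25.1% with gaps over 100 kb left out, 24.3% with Chromosome X included, 23.4% counted in fragment ends, 25.05% without segments under 50 ends per Mb and 24.96% without Chromosome 12. The lost percent was 8.13% with borders at the outer ends, 7.90% with gaps left out, 8.79% with Chromosome X, 7.74% without sparse segments and 8.09% without Chromosome 12. Leaving out sparse segments or Chromosome 12 was chosen after seeing the data. Without Chromosome 12, 265 NPC PADs held 2 or more ESC PADs. Genes wholly inside a class numbered 5873 gained and 1252 lost. No paired analysis was possible because the columns carry no replicates and no result comes from a test, and for the same reason no replicate was left out. The table gives no depth, so it cannot show which calls rest on few reads.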
